A study of Mus musculus with 14 samples.

Results

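The 4 libraries compared here are those taken 3 and 7 days into expression of YAP5SA in cultured mouse small cell lung cancer cells, 2 per day, out of 14 libraries in the series. They were chosen by their labels alone, and every gene was compared. Of 32926 gene symbols, 13996 held enough counts to be tested. YAP5SA is YAP, a coactivator of transcription, with the serines that Hippo kinases phosphorylate mutated, so that it stays active. Per the labels, all 4 libraries come from a line of an adult mouse of mixed strain, made from a lung tumour that arose after injection of TM, and carry CGRPCreER/+ with floxed alleles that include Rbf/f and P53f/f, as well as Rosa26rtTA and Tet-onYAP5SA. The CGRP promoter, which is active in neuroendocrine cells, drives the CreER recombinase, and the cells were kept in Hites medium. Days 0 and 21 of the same course, with 2 libraries each, entered the fit for their spread and are given beside the results. The text on 1 of the day 0 libraries lists no transgene and writes the P53 allele otherwise than the labels of days 3 and 7. The labels name no inducing agent, no library without the transgene at days 3 or 7, and no separate cultures. Time in culture and time on YAP5SA therefore cannot be told apart here. All p-values measure the spread between these libraries alone, which may be technical, and they describe a single line.

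YAP and its paralogue TAZ enter the nucleus when the Hippo kinases are inactive and switch on genes by binding the TEAD transcription factors. Small cell lung cancer is mostly a neuroendocrine tumour, driven by proneural transcription factors and full of secretory granules, and its neuroendocrine cells are known for low YAP. In the alveolus YAP and TAZ are known for promoting the flat type I cells that line the air spaces.

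Totals over genes ran from 9831050 to 10659524 counts in the 4 libraries. Levels are given as CPM, the usual depth-scaled counts with TMM-scaled library sizes, and changes are log2 changes of day 7 against day 3 from edgeR's quasi-likelihood test, adjusted by Benjamini-Hochberg over all 13996 genes and called at 0.05. The 2 libraries of a day differed by more than counting noise, with a chi-square per degree of freedom of 4.43 at day 3 and 1.89 at day 7, so that none was a copy of the other. Mitochondrial transcripts made up 3.63% and 3.13% of the counts at day 3 and 2.85% and 2.86% at day 7. Of the other libraries, NE replicate 2 appeared to be contained in day 0 replicate 1, since 0 of 32926 genes had more counts in the former, and neither is a day 3 or day 7 library. Markers that define small cell lung cancer cells were present, with Chga, the granule protein chromogranin A, at 372 and 317 CPM at day 3 and 184 and 167 CPM at day 7. The CGRP gene Calca itself and the neuroendocrine factor Neurod1 had 0 counts in all 4 libraries. A day at 0 allows up to 3 counts over its pair of libraries, 0.142 CPM at day 3 and 0.156 CPM at day 7, counting error only.

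Between days 3 and 7 most of the measured genes shifted, and the large changes were mostly rises. Of 13996 genes, 7785 were called (55.6%), 4128 of them higher at day 7 (29.5%) and 3657 lower (26.1%). Changes of at least 2-fold made up 2293 of the calls (16.4% of genes tested). Between 1.5-fold and 2-fold there were 881 rises and 979 falls, and from 8-fold to 16-fold there were 162 rises and 18 falls. Above 16-fold 198 genes rose and 9 fell, many of them from a few counts. Both libraries of one day lay above both of the other in 11030 genes tested (78.8%) and in 7781 of the calls, among them every gene named below as having risen or fallen. Scaling by library totals alone moved the median change of all genes from 0.02 to -0.12 and the share of calls that were rises from 53.0% to 38.2%. No gene named below as having risen or fallen changed direction with it.

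**Figure D1:**
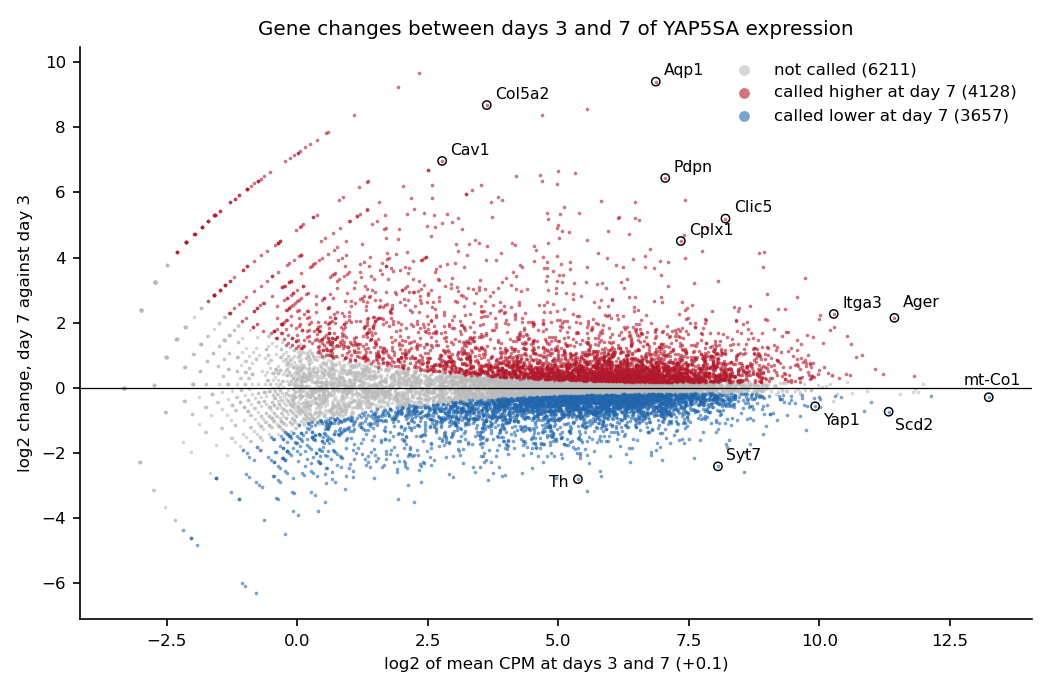
Each point is a gene tested, with its log2 change of day 7 against day 3 against the log2 of its mean CPM over both days. Rises reach further than falls, and the arcs at the left are genes with a few counts on either day, whose fitted change depends on the prior count.

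Yap1, whose counts may hold the transgene and the endogenous gene together (chromosome 9, 7931999 to 8004596, minus strand of mm10), was higher at day 3 than on the other days sampled. It stood at 7.97 and 7.22 CPM at day 0, at 1240.0 and 1068 CPM at day 3 and 751 and 809 CPM at day 7, and at 214 and 224 CPM at day 21. Both day 7 libraries lay below both day 3 libraries, a 1.48-fold fall (log2 change -0.57, SE 0.08, adjusted p = 1.37e-06). With all 14 libraries of the series in the fit the call was lost (adjusted p = 0.351). Of the floxed tumour suppressors reported here, Rb1 fell from 49.7 and 58.1 to 30.2 and 31.8 CPM and Trp53 fell from 11.6 and 10.6 to 6.45 and 5.80 CPM. Counts per gene give no coverage of single exons, so the deletions themselves were not checked. Nor was it checked what share of the transgene's reads is counted under Yap1.

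The YAP and TAZ target genes rose together while Yap1 fell. Of 22 listed, 20 were tested, 17 rose and 1 fell, with a median log2 change of 2.24 against 0.02 over all genes. Summed over the list, the level went from 1326 and 1547 CPM at day 3 to 4513 and 4517 CPM at day 7. The list was chosen with earlier results of these libraries known, so its direction is a description. Of the 20, 5 were under 1 CPM at day 3, and such genes pass the count filter only through a day on which they are high. Of the 15 others, 13 rose and 1 fell. In bulk RNA, more cells of a state and more RNA per cell cannot be told apart, here or below.

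The promoters of 6 of the risen targets with the letters GGAATG, the core that TEAD factors bind, are shown because these genes moved together and because several of them are standard readouts of YAP. Each line gives the 250 bases before the start site from RefSeq (GRCm38.p6, the same sequence as mm10), 5′ to 3′ on the gene's strand, with GGAATG or its reverse complement CATTCC in capitals.
Cyr61, chr3:145649986-145650235 (-): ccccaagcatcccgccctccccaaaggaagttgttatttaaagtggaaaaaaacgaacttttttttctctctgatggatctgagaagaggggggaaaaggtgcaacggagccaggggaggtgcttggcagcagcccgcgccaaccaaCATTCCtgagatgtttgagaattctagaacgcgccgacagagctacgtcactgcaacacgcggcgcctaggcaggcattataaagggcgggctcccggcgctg
Ankrd1, chr19:36119845-36120094 (-): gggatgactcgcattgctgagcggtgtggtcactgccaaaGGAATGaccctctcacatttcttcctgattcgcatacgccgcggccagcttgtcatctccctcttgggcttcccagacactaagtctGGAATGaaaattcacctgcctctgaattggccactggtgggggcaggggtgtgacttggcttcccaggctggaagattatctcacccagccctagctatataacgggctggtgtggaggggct
Amotl2, chr9:102717554-102717803 (+): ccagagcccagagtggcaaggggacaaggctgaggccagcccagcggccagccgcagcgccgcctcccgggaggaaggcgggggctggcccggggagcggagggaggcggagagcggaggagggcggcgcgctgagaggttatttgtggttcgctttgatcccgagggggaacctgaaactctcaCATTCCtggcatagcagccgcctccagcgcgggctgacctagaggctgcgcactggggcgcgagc
Axl, chr7:25788734-25788983 (-): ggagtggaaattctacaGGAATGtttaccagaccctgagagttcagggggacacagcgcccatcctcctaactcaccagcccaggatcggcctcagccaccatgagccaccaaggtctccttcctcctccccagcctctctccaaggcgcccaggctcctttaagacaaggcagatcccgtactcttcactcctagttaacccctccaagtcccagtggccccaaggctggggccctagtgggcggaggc
Ptpn14, chr1:189728018-189728267 (+): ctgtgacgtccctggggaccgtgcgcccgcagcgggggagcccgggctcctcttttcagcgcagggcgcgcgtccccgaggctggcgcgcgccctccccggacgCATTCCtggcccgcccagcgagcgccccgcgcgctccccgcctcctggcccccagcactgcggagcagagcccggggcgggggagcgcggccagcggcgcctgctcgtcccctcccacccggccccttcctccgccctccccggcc
Crim1, chr17:78199998-78200247 (+): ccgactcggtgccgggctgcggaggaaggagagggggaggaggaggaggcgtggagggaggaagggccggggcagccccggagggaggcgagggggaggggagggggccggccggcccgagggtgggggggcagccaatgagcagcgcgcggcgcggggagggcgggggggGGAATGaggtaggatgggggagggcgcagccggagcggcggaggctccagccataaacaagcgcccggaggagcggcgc
The match begins 103 bases before the start site in Cyr61, 210 and 123 bases before it in Ankrd1, 65 in Amotl2, 233 in Axl, 146 in Ptpn14 and 79 in Crim1. In the window of 250 bases before to 50 after the start, 7 of the 12 risen targets with a RefSeq entry held the core on either strand. The share was 16.6% over the 27025 genes with an entry and 14.4% over the tested ones, and it was 22.2% in the 1100 genes with an entry that were called at least 2-fold higher, and 79 of the 610 called at least 2-fold lower held the core. None of the 18 risen type I markers with an entry held it. A match describes letters in this window and is not evidence of binding. The list was made of targets of YAP and TAZ, which act through TEAD, and only its risen members were counted. Its share is therefore a description and not a test of enrichment.

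Ctgf and Cyr61, which encode secreted matricellular proteins and are the classical readouts of YAP, were both higher at day 7. Ctgf stood at 8.79 and 9.79 CPM at day 3 and 128 and 128 CPM at day 7 (log2 change 3.78, SE 0.10, adjusted p = 1.9e-19), and Cyr61 (log2 change 2.12, SE 0.09, adjusted p = 9.03e-16) at 167 and 206 CPM at day 3 and 825 and 800.5 CPM at day 7. Ankrd1, an ankyrin repeat protein of the nucleus and sarcomere, rose from 13.3 and 19.8 to 216 and 208 CPM. In each of the 3 the day 7 libraries stood close to each other and several-fold above both day 3 libraries. The membrane repair protein gene Myof rose from 7.13 and 7.11 to 116 and 112.1 CPM, the nucleotidase gene Nt5e rose from 41.0 and 50.05 to 283 and 289 CPM, and the coagulation starter F3 rose from 123 and 152 to 414 and 452 CPM. Axl, a receptor tyrosine kinase, had 2 counts over both day 3 libraries and 214 over both day 7 libraries, a pooled ratio of 117 with an exact 95% counting interval of 32.0 to 972. Arhgef17, a guanine nucleotide exchange factor, was the 1 target that fell, from 10.75 and 11.3 to 7.80 and 7.88 CPM, and its call was lost without day 3 replicate 2 (adjusted p = 0.0576), day 7 replicate 1 (0.0649) or day 7 replicate 2 (0.0584).

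Among the Hippo genes themselves, 21 of 27 tested rose and 2 fell. Several of the risen members restrain YAP. The kinase gene Lats2, a YAP target and also the enzyme that phosphorylates it, rose from 72.3 and 87.2 to 413 and 406 CPM (log2 change 2.36, SE 0.09, adjusted p = 2.99e-17). The upstream scaffold genes Wwc2, Wwc1 and Frmd6 rose 6.44-fold, 2.37-fold and 3.42-fold. All 7 tested genes of the group that binds YAP or its TEAD partners rose, from 1.39-fold in Vgll4 to 4.05-fold in Amot. Amotl2 rose from 521 and 643 to 1182 and 1183 CPM. Of 14 kinases and scaffolds 12 rose and 0 fell, but the changes were small in most, with Nf2, the merlin gene, at 229 and 233 CPM at day 3 and 351 and 341 CPM at day 7 and Stk4, the MST1 kinase gene, at 376 and 386 CPM at day 3 and 534 and 549 CPM at day 7. The DNA-binding partners were uneven. Tead4 rose from 26.3 and 27.9 to 87.6 and 86.7 CPM and Tead1 from 575 and 628 to 1019 and 1053 CPM, while Tead3 fell from 37.9 and 42.8 to 25.8 and 24.2 CPM and Tead2 stood at 4.20 and 4.43 CPM at day 3 and 4.26 and 4.25 CPM at day 7 without a call. Wwtr1, the TAZ gene, had 2 counts at day 3 and 5 at day 7 in all.

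All 22 tested alveolar type I markers rose, 20 of them at least 2-fold, with a median log2 change of 2.11, or 1.98 with the marker at 0 on day 3 set to its lower bound. Of these, 3 were under 1 CPM at day 3 and 19 of the 19 others rose. This list too was chosen with earlier results of these libraries known, so its direction is a description. Ager, the receptor for advanced glycation end products, rose from 872 and 1165 to 4752 and 4291 CPM (chromosome 17, 34597862 to 34600936, plus strand of mm10; log2 change 2.15, SE 0.12, adjusted p = 9.5e-12), the largest gain in CPM of any called gene. Its level was 4.55 and 5.25 CPM at day 0 and 1739.8 and 2190.1 CPM at day 21. The surface glycoprotein podoplanin, Pdpn, rose 87.0-fold, from 3.03 and 2.95 to 269 and 253 CPM. The chloride channel protein gene Clic5 rose 36.7-fold, from 13.9 and 17.3 to 581 and 564 CPM. Day 3 values were thus low but measurable in both genes, and in both the day 7 libraries lay close together.

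Other type I genes rose by different amounts. Col4a3 and Col4a4, chains of the alveolar basement membrane collagen, rose 52.1-fold and 36.8-fold, and the growth factor binder Igfbp2 rose 25.9-fold. The water channel gene Aqp5 rose from 48.9 and 54.8 to 188 and 170.2 CPM and the cofactor gene Hopx from 27.9 and 46.4 to 135 and 136 CPM. Emp2 and Vegfa, already high at day 3, rose least among those named, 2.02-fold and 1.32-fold, and the call of Vegfa was lost without day 3 replicate 1 (adjusted p = 0.0511). Cav1, the coat protein of caveolae, had 2 counts at day 3 and 258 at day 7, a pooled ratio of 141 with a counting interval of 38.7 to 1171.

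**Figure D2:**
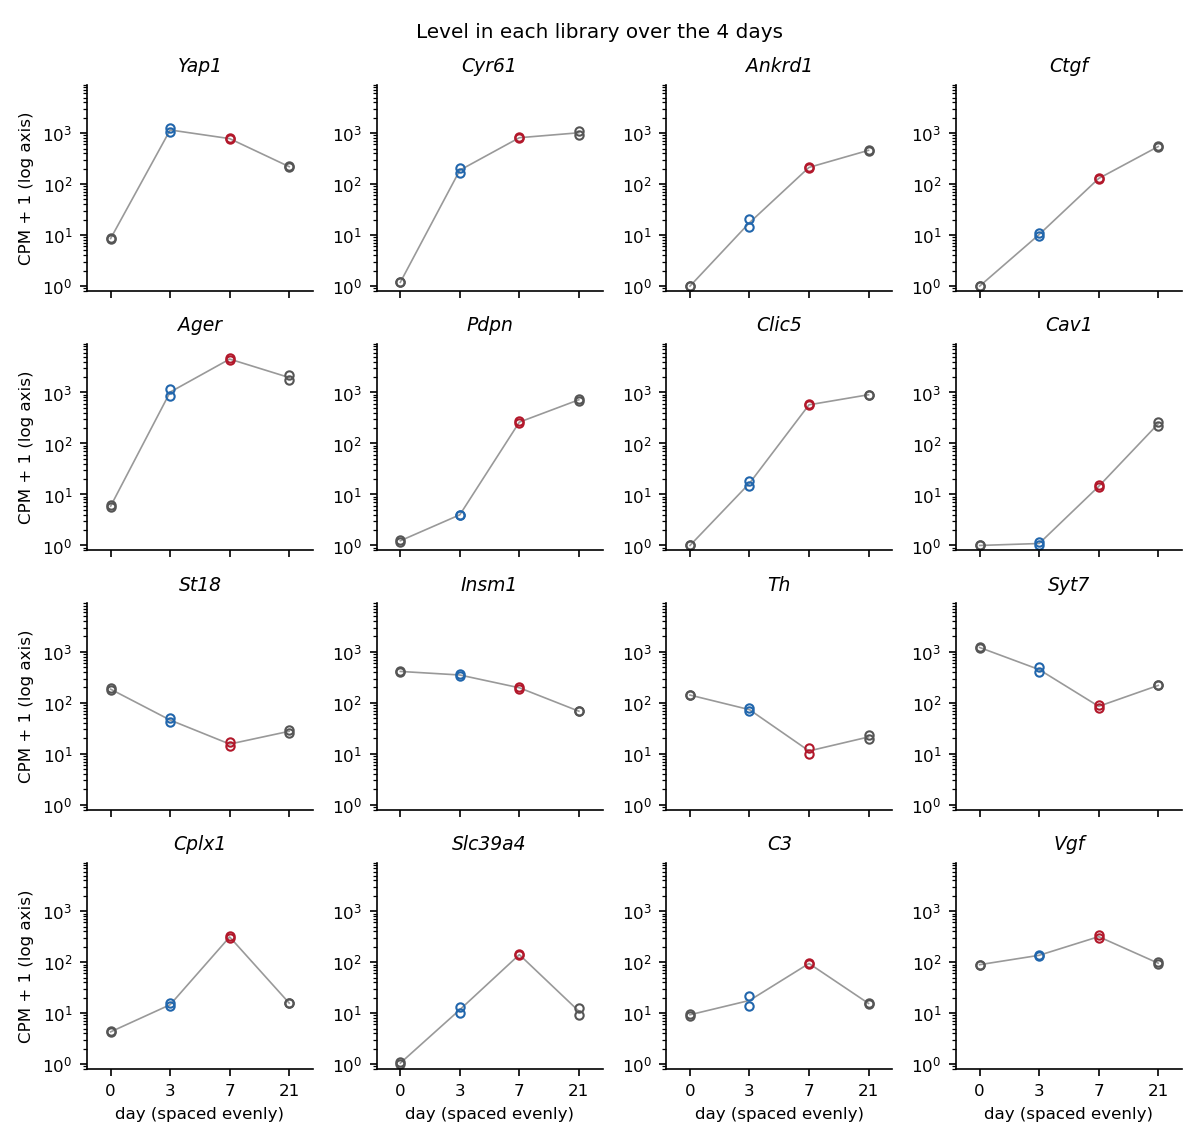
Points are CPM + 1 in each library on a log axis for 16 genes at days 0, 3, 7 and 21, with day 3 in blue, day 7 in red and a line through the daily means. YAP targets and type I genes are higher at day 7 than day 3 while Yap1 is lower, neuroendocrine genes are lower, and the genes of the bottom row are highest at day 7.

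Of 10 tested type II markers 6 rose and 2 fell, and the list summed to 296 and 296 CPM at day 3 and 396 and 372 CPM at day 7. Most of this was the lipid transporter gene Abca3, at 119 and 110.1 CPM at day 3 and 156 and 138 CPM at day 7, with Lpcat1 and Fabp5. Napsa, an aspartic protease of surfactant processing, rose from 4.59 and 6.28 to 70.8 and 66.6 CPM, but the surfactant protein genes stayed low, with Sftpc at 1.27 and 1.11 CPM at day 3 and 0.312 and 0.104 CPM at day 7 and Sftpb at 0.684 and 0.462 CPM at day 3 and 0.416 and 0.414 CPM at day 7. Of 10 tested club, ciliated and basal markers 3 rose and 3 fell, near the 29.5% and 26.1% over all genes tested. The ciliated markers summed to 154 and 150.1 CPM at day 3 and 178 and 168 CPM at day 7, nearly all of it the tubulin gene Tubb4b (141 and 139.9 CPM at day 3 and 172 and 164 CPM at day 7), while the ciliary factor Foxj1 fell from 2.15 and 1.94 to 0.624 and 0.207 CPM. The call of Tubb4b was lost without day 7 replicate 1 (adjusted p = 0.0612). The club cell gene Scgb1a1 and the basal cell gene Krt5 had at most 3 counts per day, while Krt14 rose from 0.195 and 0.185 to 7.70 and 10.4 CPM. Of 8 tested tuft cell markers 6 rose and 0 fell, all from under 3 CPM. The defining tuft factor Pou2f3 had 0 and 1 counts over the 2 days. Ptgs1, cyclooxygenase 1, rose from 0.782 and 1.02 to 11.03 and 13.3 CPM.

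Neuroendocrine genes fell in the same interval. Of 20 tested lineage factors 14 fell and 1 rose, and of 21 tested genes of a neuroendocrine score 15 fell and 2 rose, with median log2 changes of -0.75 and -0.55. Insm1, a zinc finger factor of endocrine cells, stood at 403 and 420.5 CPM at day 0 and fell from 368 and 333 to 207 and 185 CPM between days 3 and 7 (log2 change -0.84, SE 0.08, adjusted p = 1.13e-09). St18, a zinc finger relative of Myt1l, fell from 49.6 and 40.2 to 13.2 and 15.9 CPM. Prox1 and the lung factor gene Nkx2-1 fell 1.80-fold and 1.82-fold, and the ID genes Id1, Id2 and Id3, which encode inhibitors of helix-loop-helix factors, all fell. Sox11 was the 1 that rose, 1.48-fold, and Foxa2, Nfib, Sox2, Sox4 and Runx1t1 were not called, so that the fall was not seen in every lineage factor.

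The genes of a non-neuroendocrine score rose in 16 of 25 and fell in 4, 1 of the 4 being Yap1. Among the largest rises besides Cav1 were those of the TGF-beta receptor gene Tgfbr2, from 0.195 and 0.277 to 9.99 and 10.8 CPM, and the annexin partner S100a10, from 3.62 and 4.80 to 118 and 121 CPM. Abcc3, Rab27b and Ifitm2 fell. Rest, the repressor of neuronal genes, rose from 1.47 and 1.94 to 15.7 and 13.8 CPM (log2 change 3.10, SE 0.23, adjusted p = 2.14e-11), while Srrm4, the splicing factor that switches REST off in neural cells, fell from 30.8 and 27.1 to 18.4 and 19.4 CPM. The REST corepressor gene Rcor2 fell 2.24-fold. More Notch genes fell than rose. Of 11 tested receptor and ligand genes 3 rose and 6 fell, and of 6 tested effector genes 1 rose and 3 fell. Jag1 and Notch2 rose 2.66-fold and 2.09-fold, while Hey1, a Notch effector, fell from 23.8 and 25.4 to 7.28 and 6.42 CPM and the inhibitory ligand gene Dll3 fell from 19.0 and 15.0 to 10.9 and 8.50 CPM.

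Most genes of the secretory machinery of neuroendocrine cells also fell in this interval. Among granule, hormone and monoamine genes 18 of 26 fell and 4 rose. Th, tyrosine hydroxylase, the first enzyme of catecholamine synthesis, fell from 77.9 and 66.9 to 11.8 and 9.02 CPM (log2 change -2.80, SE 0.13, adjusted p = 1.46e-15). Ddc, the decarboxylase that follows it, fell from 117 and 78.8 to 14.7 and 15.0 CPM (log2 change -2.72, SE 0.17, adjusted p = 4.99e-09). For both, the day 3 libraries were 77.9 and 66.9 and 117 and 78.8 CPM, 5-fold or more above either day 7 library. Maoa, which degrades monoamines, moved the other way and rose from 21.9 and 21.4 to 100.4 and 99.2 CPM. Of 6 granins 5 fell, Chga by 1.97-fold, and Vgf alone rose, from 132 and 139 to 334 and 297 CPM. Of 8 prohormone processing genes 6 fell, Pcsk2 and Resp18 most (3.78-fold and 3.24-fold), and Cpe rose 1.29-fold.

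Vesicle release genes fell in 22 of 32 and rose in 4. Syt7, a calcium sensor of exocytosis, fell from 495 and 401 to 89.5 and 79.3 CPM (log2 change -2.41, SE 0.10, adjusted p = 1.15e-16), and Sv2a and Syt1 fell 4.26-fold and 3.03-fold. The complexins, small proteins that clamp the SNARE complex, went opposite ways. Cplx2 fell from 540.4 and 398 to 143 and 122 CPM. Cplx1 rose from 12.7 and 14.6 to 330.3 and 292 CPM (chromosome 5, 108518554 to 108550024, minus strand of mm10; log2 change 4.51, SE 0.10, adjusted p = 1.39e-21), and its level was 3.23 and 3.37 CPM at day 0 and 14.8 and 14.8 CPM at day 21. Both day 7 libraries were thus over 10-fold above all libraries of the other days.

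Voltage-gated channel genes fell in 18 of 29 and rose in 7. The calcium channel gene Cacna1h fell from 211 and 207 to 45.0 and 45.2 CPM and the sodium channel gene Scn9a from 121 and 104 to 41.1 and 39.6 CPM. Potassium channel genes were split, with 9 of 15 lower and 4 higher, Kcnip2 falling 4.79-fold. Among neuronal cytoskeleton and adhesion genes 17 of 27 fell, such as the neurofilament gene Nefl (3.51-fold) and the RNA-binding protein gene Elavl3 (2.55-fold), and 6 rose, among them the adhesion genes Ncam1 (1.82-fold) and L1cam (1.39-fold).

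Of the 15 steepest falls with at least 10 CPM at day 3, that of Kcnh3 was the smallest, 5.50-fold. Among them were Cpne5, which encodes a calcium-dependent membrane binding protein and fell from 22.9 and 20.7 to 3.12 and 3.01 CPM, Th, Mcoln3, Stac2, Ddc, Stk33, the calcium release channel gene Ryr2, Fhad1, Arhgef38, Kif19a, the neuronal factor Myt1l, and the potassium channel gene Kcnip1. Kif19a, a kinesin of cilia, was the 1 of the 15 whose day 3 level (19.6 and 26.3 CPM) was above both day 0 libraries (11.8 and 11.2 CPM).

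The 15 steepest rises with at least 10 CPM at day 7 were larger. Aqp1, a water channel of endothelium and kidney, rose 675-fold, from 0.293 and 0.369 to 236 and 229.7 CPM (log2 change 9.40, SE 0.21, adjusted p = 1.98e-21). Serpinb9b and Scel, which encode a granzyme inhibitor relative and sciellin of the cornified envelope, reached 89.9 and 97.2 and 48.7 and 53.6 CPM. Col5a2, a fibrillar collagen chain, had 1 count at day 3 and 472 at day 7, a pooled ratio of 516 with a counting interval of 92.2 to 20427. Bmp4 had 2 and 213 counts and Gas7 3 and 225. The remaining genes were Cav1, Axl, the raft protein gene Mal, the sialic acid receptor gene Siglecg, the uroplakin gene Upk1b, Pdpn, the natriuretic peptide receptor gene Npr3, the protease gene Htra1 and Lox, which crosslinks collagen. All 15 were below 4 CPM at day 3, and 14 of them stood higher still in both day 21 libraries, Aqp1 being the exception (173 and 223 CPM).

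Adhesion and cytoskeleton genes rose broadly. Of 36 tested focal adhesion and actin genes 27 rose and 2 fell, with a median log2 change of 0.82. Tns1, a tensin that ties integrins to actin, rose from 21.4 and 22.7 to 432 and 384 CPM (log2 change 4.21, SE 0.11, adjusted p = 1.66e-20). Talin and vinculin, Tln1 and Vcl, rose 2.30-fold and 2.20-fold. The filamin gene Flnc rose from 3.22 and 2.77 to 47.5 and 50.8 CPM, and Actb, beta-actin, rose from 912 and 861 to 2317 and 2178 CPM. Csrp1 and Myl9 fell, the latter not without day 3 replicate 1 (adjusted p = 0.0572). The near-identical Actg1 held only 5.67 and 4.71 CPM at day 3 and 5.72 and 6.32 CPM at day 7, so that reads of the actin genes may be split or lost and their levels are uncertain.

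Of 8 tested caveola genes 7 rose and 0 fell. Ehd2, an ATPase of the caveolar neck, rose from 6.35 and 6.002 to 349 and 328 CPM, and Ptrf, which encodes cavin 1, from 71.9 and 86.3 to 319.7 and 306 CPM. Integrin and laminin genes rose in 16 of 22 and fell in 1, Itga5, whose call was lost without day 3 replicate 2 (adjusted p = 0.472) or day 7 replicate 1 (0.119). Itga3, the laminin receptor chain, rose from 410.0 and 441 to 2117 and 1985 CPM (log2 change 2.27, SE 0.09, adjusted p = 1.69e-16), and the epithelial laminin 332 genes Lama3 and Lamb3 rose 18.8-fold and 6.89-fold. Of 26 collagen and matrix genes 18 rose and 2 fell (1 without day 3 replicate 1 or day 7 replicate 2). Sparc, a collagen-binding glycoprotein, rose from 167 and 213 to 1356 and 1298 CPM and thrombospondin, Thbs1, from 327 and 437 to 1624 and 1658 CPM. Among protease and inhibitor genes 12 of 20 rose and 2 fell, with the inhibitor gene Timp2 going from 322 and 296 to 1006 and 1021 CPM and Serpine2 falling 2.78-fold. Of these lists 2, 6, 11 and 6 tested members were under 1 CPM at day 3, and 5 of 6, 12 of 16, 10 of 15 and 8 of 14 of the rest rose.

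Of 13 mesenchymal genes tested 6 rose and 0 fell (1 without day 3 replicate 1), with a median log2 change of 1.29, but most stood at low levels. Of the 13, 9 were under 1 CPM at day 3, and 3 of the 4 others rose. Only Cdh2, N-cadherin, was above 10 CPM among the 6, rising from 101 and 98.5 to 174 and 172 CPM. Vim stood at 0.195 and 0.0923 CPM at day 3 and 0.208 and 0.104 CPM at day 7, and the factors Zeb1, Zeb2, Snai2, Twist1 and Twist2 had at most 9 counts per day. Epithelial genes rose in 24 of 38 and fell in 6, or in 10 when scaled by library totals alone. Krt19 rose from 103 and 141 to 695 and 691 CPM, the tight junction genes Cldn4 and Tjp1 rose 3.58-fold and 3.22-fold, and Cdh1, E-cadherin, rose from 841 and 809 to 1016 and 1010.2 CPM, though not when scaled by library totals alone (adjusted p = 0.0662). Epcam fell from 598 and 575 to 369 and 372 CPM and the epithelial factor Elf3 from 184 and 211 to 66.7 and 70.2 CPM. All 8 tested S100 genes rose, S100a11 26.7-fold and S100a13 from 99.8 and 118 to 576 and 620.0 CPM, and 10 of 14 annexin and galectin genes rose, led by Anxa3, from 51.2 and 52.4 to 918 and 933 CPM.

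**Figure D3:**
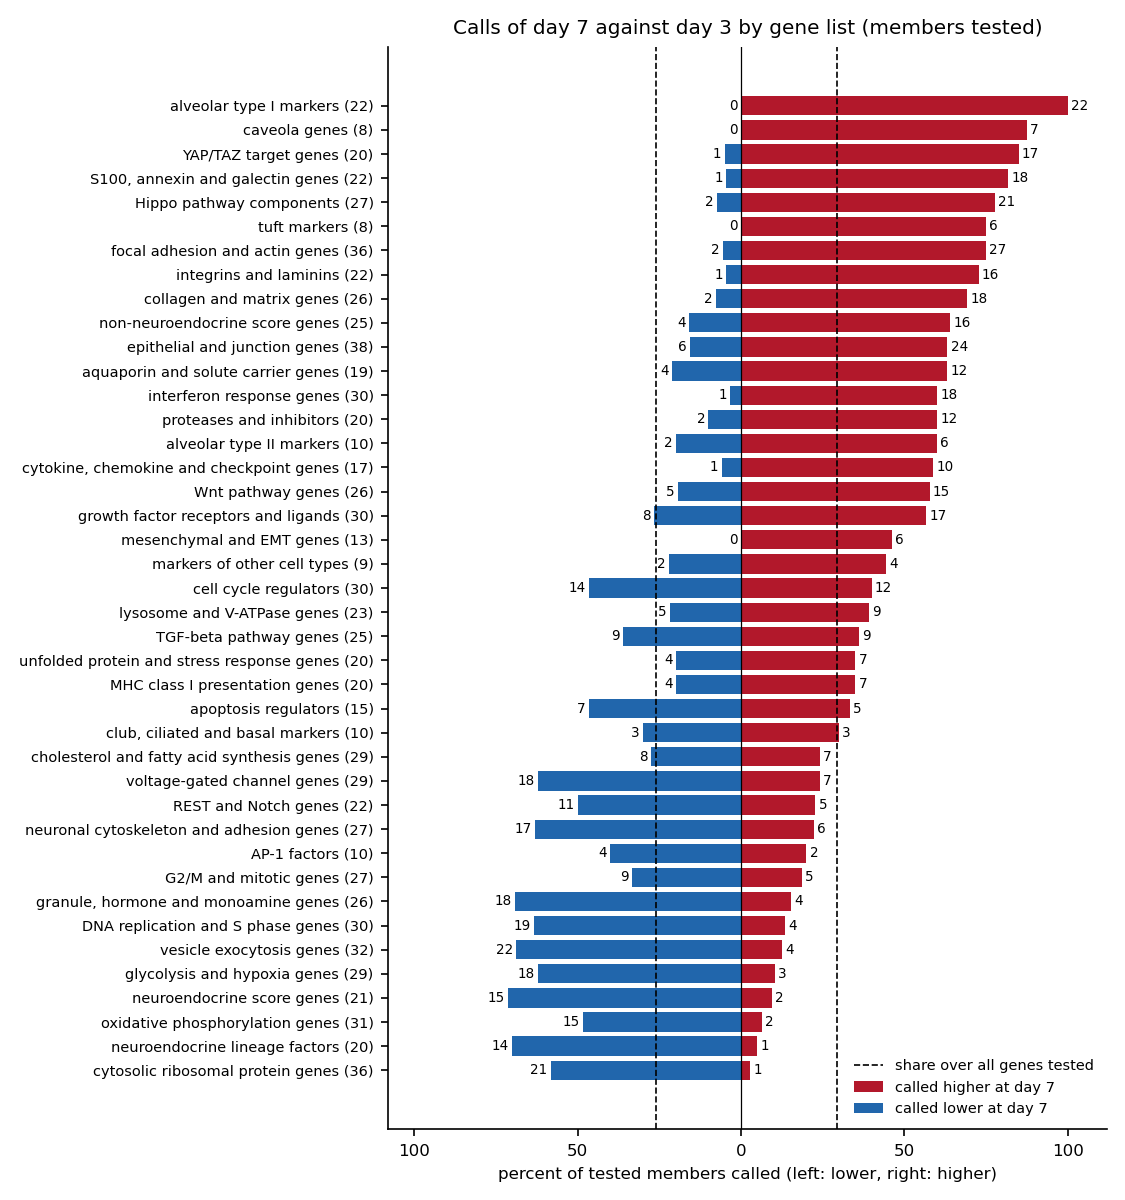
Bars give the percent of each list's tested members called higher (right) and lower (left) at day 7, with the number called at the bar's end and the number tested in brackets. Dashed lines mark the shares over all genes tested, 29.5% and 26.1%, and the type I list is the 1 list with every tested member higher. The lists were chosen with earlier results of these libraries known.

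Genes of signalling pathways moved in several directions. Among growth factor genes 17 of 30 rose and 8 fell. The EGF receptor ligand gene Hbegf rose from 77.3 and 82.5 to 269.5 and 264 CPM and Fgf1 from 27.9 and 33.5 to 192 and 201 CPM, while the neuroendocrine receptor genes Ret and Kit fell 2.54-fold and 1.64-fold. Igfbp5, an IGF binder, fell from 702 and 509 to 165 and 141 CPM, opposite to Igfbp2. Of 10 Wnt ligands 7 rose and 1 fell. Wnt7b rose from 17.0 and 23.4 to 321 and 324 CPM, Wnt7a from 24.9 and 28.2 to 149 and 148 CPM and Wnt4 from 120.5 and 132 to 418 and 390.4 CPM, all with separate days, and the matricellular gene Wisp1 rose 37.0-fold. TGF-beta and BMP genes split evenly, 9 of 25 rising and 9 falling, Bmp4 and Smad3 against Bmp7 and Bambi. AP-1 factor genes, partners of TEAD at many enhancers, fell in 4 of 10 (2 without day 7 replicate 2), including Jun (1.28-fold) and Junb, and rose in 2, Fosl2 (from 285 and 353 to 512 and 510.4 CPM) and Fos. For the TGF-beta, BMP and AP-1 genes these counts stand beside 29.5% rises and 26.1% falls over all genes tested.

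Interferon response genes rose in 18 of 30 and fell in 1, Irf1 (1.87-fold), and 15 of the 22 at 1 CPM or more on day 3 rose. The sensor gene Ddx58 rose from 12.1 and 10.71 to 46.5 and 46.4 CPM and the antiviral gene Rsad2 from 14.6 and 16.8 to 59.1 and 55.7 CPM. Cytokine, chemokine and checkpoint genes rose in 10 of 17 and fell in 1, Cd47 (2 without day 3 replicate 1). Of these 17, 6 were under 1 CPM at day 3, and of the 11 others 5 rose. Csf1, the macrophage growth factor, rose from 10.5 and 12.5 to 189 and 189.9 CPM (log2 change 4.04, SE 0.10, adjusted p = 7.88e-21) and complement C3 from 12.9 and 20.6 to 96.0 and 90.7 CPM. The CSF1 receptor gene Csf1r, a marker of macrophages, rose from 1.66 and 3.32 to 59.9 and 63.7 CPM, with 107 and 128 CPM at day 21. The 8 leukocyte markers in the table summed to 4.40 and 6.28 CPM at day 3 and 62.7 and 66.0 CPM at day 7, nearly all of it Csf1r, which was the 1 that rose. Ptprc and Tyrobp, which define leukocytes, had 0 counts on both days and Cd68 was not called. Laptm5 stood at 0.782 and 1.29 CPM at day 3 and 0.312 and 0.207 CPM at day 7, a fall whose call was lost without day 3 replicate 2 (adjusted p = 0.108) or day 7 replicate 2 (0.0803).

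Markers of other cell types that a tumour line could hold were low, apart from Csf1r among the leukocyte markers above and Vwf. Fibroblast markers summed to 5.08 and 5.63 CPM at day 3 and 14.1 and 12.95 CPM at day 7, with Lum and Postn at 0. Erythroid markers summed to at most 0.277 CPM. Endothelial markers summed to 239 and 226 CPM at day 3 and 127 and 125 CPM at day 7, nearly all of it Vwf (237 and 225 CPM at day 3 and 125 and 123 CPM at day 7), with Cdh5, Cldn5 and Emcn at 0. Of 20 genes of class I antigen presentation 7 rose and 4 fell, not far from the 29.5% and 26.1% over all genes tested. Scaled by library totals alone, or without day 7 replicate 1, 4 rose. B2m, the invariant chain, rose from 24.5 and 33.6 to 155 and 154 CPM, while the proteasome activator gene Psme1 fell from 337 and 360.1 to 177 and 159 CPM.

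Cell cycle genes did not move as one. Of 30 replication genes 19 fell and 4 rose, Pola1 and Pcna falling 2.11-fold and 1.65-fold and the nucleotide reductase gene Rrm1 rising from 369 and 405 to 589 and 616 CPM. Of 27 mitotic genes 9 fell (14 when scaled by library totals alone), 5 rose and 13 were not called, with Top2a at 489 and 509 CPM at day 3 and 337 and 340.3 CPM at day 7 and Foxm1 rising from 87.2 and 94.7 to 169 and 171 CPM. Ccnd1, cyclin D1, rose from 94.3 and 86.9 to 373 and 341 CPM and Myc from 70.3 and 71.0 to 179 and 179 CPM. Mycl, its paralogue in neuroendocrine tumours, fell from 50.1 and 53.8 to 26.0 and 24.1 CPM. The CDK inhibitor genes Cdkn1a and Cdkn1c fell 2.18-fold and 3.70-fold and Cdkn2b rose 2.55-fold. Among cell cycle regulators as a whole 12 of 30 rose and 14 fell. The counts of these cell cycle lists stand beside 29.5% rises and 26.1% falls over all genes tested.

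Apoptosis regulators fell in 7 of 15 and rose in 5, beside 26.1% falls and 29.5% rises over all genes tested. The protective genes Bcl2l1, Mcl1 and Bcl2 rose 1.64-fold, 1.41-fold and 1.77-fold, Bcl2l1 reaching 719 and 680.0 CPM. The BH3-only genes Bmf, Bcl2l11 and Bbc3, which promote death, fell, Bmf from 49.6 and 39.5 to 11.7 and 9.22 CPM. Bak1 and Bid, which also promote death, rose 3.27-fold and 1.87-fold.

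Glycolysis and hypoxia genes fell in 18 of 29 and rose in 3. Gpi1 fell from 1045 and 1373 to 494 and 492 CPM and Ldha from 2204 and 2414 to 1439 and 1366 CPM, and the HIF target Egln3 fell from 461 and 445 to 134 and 142 CPM. Car9, also a HIF target, rose from 4.40 and 5.82 to 24.9 and 27.3 CPM. In fatty acid synthesis 5 of 9 genes fell, Scd1 and Srebf1 by 3.04-fold and 1.83-fold. Of 20 cholesterol genes 6 rose, near the 29.5% over all genes tested, and 3 fell, against 26.1% over all genes. Without day 3 replicate 2, 4 genes of both groups together rose and 5 fell, against 7 and 8. Without day 7 replicate 1, 4 rose, and without day 7 replicate 2, 5 fell. Oxidative phosphorylation genes fell in 15 of 31 and rose in 2, and the mitochondrial gene mt-Co1 fell 1.22-fold. Its call was lost without day 3 replicate 1, day 7 replicate 1 or day 7 replicate 2 (adjusted p = 0.0522, 0.122 and 0.111). The list does not hold mt-Co1, since its 31 genes summed to 5271 and 5360 CPM at day 3 and mt-Co1 alone stood at 10801 and 10491 CPM. Mitochondrial transcripts as a whole went from 3.63% and 3.13% to 2.85% and 2.86% of the counts. Any link between this share and the list's fall was not tested. Without day 7 replicate 1 or without day 3 replicate 2 no gene of this list was called higher. Ribosomal protein genes fell in 21 of 36 and rose in 1, all less than 2-fold, and 13 fell without day 3 replicate 2 and 0 rose without day 7 replicate 1. Several of them, and Gapdh at 50.7 and 68.4 CPM on day 3, are low for such genes and have near-identical copies, so that their counts are uncertain.

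Stress and lysosome genes showed little common direction, with 7 of 20 and 9 of 23 higher and 4 and 5 lower, not far from the shares over all genes. Of the stress genes 2 were lower without day 3 replicate 2, day 7 replicate 1 or day 7 replicate 2. Of the lysosome genes 8 were lower when scaled by library totals alone, 2 without day 3 replicate 2, 3 without day 7 replicate 1 and 1 without day 7 replicate 2. Chac1, a target of ATF4, rose from 47.5 and 41.6 to 90.7 and 87.1 CPM, the lysosomal sterol carrier gene Npc2 from 68.8 and 73.5 to 142 and 146 CPM, and the lysosomal channel gene Mcoln3 fell 6.87-fold. Of 19 aquaporin and solute carrier genes 12 rose and 4 fell (2 without day 7 replicate 1). Slc39a4, a zinc importer, rose from 9.19 and 12.2 to 145 and 134 CPM (log2 change 3.70, SE 0.13, adjusted p = 5.02e-18), and stood at 0.0949 and 0 CPM at day 0 and 8.37 and 11.5 CPM at day 21.

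The 10 largest gains in CPM included those of Ager, Itga3, the unconventional myosin gene Myo1c, the retinoic acid induced receptor gene Gprc5a, Actb, the small heat shock protein gene Cryab, Thbs1, Emp2 and Sparc. Cryab rose from 445 and 609.9 to 1914 and 1727 CPM and Myo1c from 676 and 795 to 2242 and 2162 CPM. The 10 largest losses included those of mt-Co1, the desaturase gene Scd2, Ldha, mt-Nd5, Gpi1, Pkm, Nkx2-1, Igfbp5 and the actin bundler gene Espn. Scd2 fell from 3103 and 3304 to 1903 and 1955 CPM and Espn from 651 and 757 to 271 and 255 CPM. The call of mt-Nd5 was lost without day 3 replicate 1, day 7 replicate 1 or day 7 replicate 2 (adjusted p = 0.218, 0.141 and 0.180), as was that of mt-Co1. CPM are not per length, so these ranks lean towards long transcripts.

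Whether the change over days 3 to 7 differed from that of the neighbouring intervals was tested in the same fit. These intervals share the day 3 or the day 7 libraries and last 3, 4 and 14 days, so that the differences are per interval and not per day. The change differed from that of days 0 to 3 in 4043 genes (28.9%), or 2341 without day 3 replicate 2, and from that of days 7 to 21 in 6765 genes (48.3%). Some genes were higher at day 7 than on any other day. For Cplx1 the change over days 3 to 7 exceeded that after day 7 by 8.91 on the log2 scale, for Slc39a4 by 7.51 and for C3 by 5.16. These genes were chosen after their values were seen, and the same values enter the differences, which are therefore a description. Such a difference does not test for a peak at day 7, since Serpinb9b, which kept rising up to day 21, had 5.77. C3 went from 96.0 and 90.7 CPM at day 7 to 15.1 and 13.96 CPM at day 21 and Vgf from 334 and 297 to 89.5 and 99.5 CPM. Syt7 stood higher at day 21, at 219 and 218 CPM, than at day 7, at 89.5 and 79.3 CPM. In contrast Lox, at 22.9 and 21.8 CPM at day 7, reached 559 and 489.8 CPM at day 21, and Vim, near 0 at day 7, reached 23.8 and 19.4 CPM.

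The NE and Non-NE lines of the series, 3 libraries each, share no library with days 3 and 7. NE replicate 2, however, appeared to be contained in day 0 replicate 1, which entered the fit of days 3 and 7. The labels of NE replicates 2 and 3 and of the Non-NE libraries write the P53 allele otherwise than those of days 3 and 7. Which text is right is not known. Of their 12966 tested genes 5554 were called between Non-NE and NE (42.8%). Across 12590 genes tested in both, the log2 change of day 7 against day 3 had a Pearson correlation of 0.560 and a Spearman rank correlation of 0.491 with the log2 difference of Non-NE against NE, a description across genes, which are not independent. Of 3563 genes called in both comparisons, 3002 (84.3%) had the same sign, 1371 higher in both and 1631 lower in both. Of the 561 others, 422 were higher at day 7 and lower in Non-NE, and 139 were lower at day 7 and higher in Non-NE, Yap1 among the latter, with a mean of 199.6 ± 63.0 CPM in the Non-NE and 12.96 ± 5.54 CPM in the NE lines. NE and Non-NE levels come from a separate scaling and are means of 3 libraries with their SD.

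Some of the genes with the steepest rises were also high in the Non-NE lines and others were not. Cav1 was at 700.3 ± 269.5 CPM in Non-NE and at 0 in all NE libraries, Axl at 612 ± 136 CPM in Non-NE, and Lox at 3446 ± 1918 CPM in Non-NE. Siglecg was at 0.798 ± 0.583 CPM in Non-NE and at 0 in all NE libraries, too low to be tested there. Of the 22 type I markers 15 were tested between these lines, and 7 were higher in Non-NE, 4 lower and 4 not called. Ager, which rose at day 7, stood at 3.06 ± 1.59 CPM in Non-NE and 2.98 ± 1.66 CPM in NE (adjusted p = 0.958). Spock2, a proteoglycan gene that rose from 587 and 608 to 1572 and 1509 CPM, was at 0.856 ± 0.0804 CPM in Non-NE and 509 ± 64.3 CPM in NE. The type I markers thus did not all lie on the Non-NE side.

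**Figure D4:**
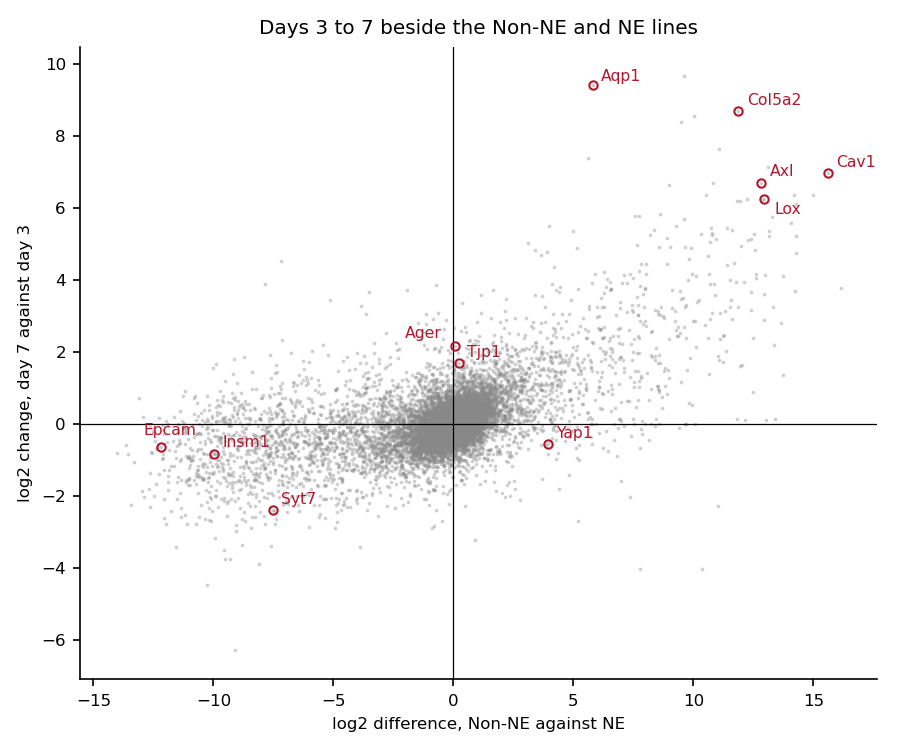
Each point is 1 of 12590 genes, with its log2 change of day 7 against day 3 against its log2 difference of Non-NE against NE. Cav1, Axl, Lox and Col5a2 are high on both axes and Insm1 and Syt7 low on both, while Ager lies near 0 on the horizontal axis. The Non-NE level of Col5a2 varied widely between libraries (312 ± 483 CPM, mean and SD).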

How the data were processed

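RNA was extracted from bulk cultures and sequenced. The submitters' processing notes name STAR 2.4.2, featureCounts and the mm10 build; annotation and strand setting are not given in the sources used here. What the authors deposited is a table of raw read counts per gene symbol, 1 column per library, with no normalization by the authors. Antisense partners, overlapping genes and near-identical copies are therefore uncertain.

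Counts of the 8 day 0, 3, 7 and 21 libraries were fitted together with edgeR 4.0.16 (R 4.3.3, TMM, quasi-likelihood test), after edgeR's filter (at least 10 counts at the median library size in as many libraries as a day holds, and 15 in all). Called means an adjusted p (Benjamini-Hochberg over all genes tested) under 0.05. NE and Non-NE, 3 libraries each, were fitted apart. Alternatives were DESeq2 1.42.0 size factors and its Wald test, library totals alone, other filters, limma 3.58.1 (voom), other sets of libraries, a test against a 2-fold change, a block for the replicate number, and each library left out in turn.

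Tested on simulated counts of 13834 genes for this comparison, the fit called 71 of 100 genes with a 1.5-fold change, 98 of 100 with a 4-fold change and 12 of 13634 without one. The false calls were 6.63% of all calls there. The simulation changed far fewer genes than were called here, with rises and falls balanced, so its rates need not hold for these data. The members and all 41 gene lists were chosen with earlier results of these data known. Genes named by rule were the targeted genes, the 15 called genes with the steepest rises (at least 10 CPM at day 7) and falls (at least 10 CPM at day 3), and the 10 with the largest gains and losses in CPM. Other names are list members chosen after their values were seen. Symbols were matched to RefSeq promoters for 10911 tested genes. TEAD cores were searched as GGAATG on both strands. They occur in 14.7% of the 32851 RefSeq promoters of 300 bases. Some items are not reported here.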

Additional observations from a re-analysis of the deposited data

Results flagged for a closer look

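The change over days 3 to 7 was tested against that of the interval before it and the interval after it, in the same edgeR fit. It differed from the change over days 0 to 3 in 4043 genes and from the change over days 7 to 21 in 6765 genes. Each pair of intervals shares the libraries of 1 day, so an error in those libraries enters both changes with opposite sign.

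Among the genes named by rule with more than 3 counts on each day involved, the largest differences from the first interval were in Yap1, at -7.81 on the log2 scale, Cryab, at -6.79, and Lox, at 5.97. Yap1 stood at 7.97 and 7.22 CPM at day 0, 1240.0 and 1068 CPM at day 3 and 751 and 809 CPM at day 7. Cryab, a small heat shock protein gene, went from 0.854 and 1.87 CPM at day 0 to 445 and 609.9 CPM at day 3. Lox was at 0.380 and 0.0937 CPM at day 0, 0.195 and 0.369 CPM at day 3 and 22.9 and 21.8 CPM at day 7. Cryab and Lox were named for their rises between days 3 and 7. The same values enter their differences, which are therefore a description.

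Among genes chosen in the same way, the largest differences from the last interval were in Aqp1, at 9.63, Siglecg, at 6.07, and Serpinb9b, at 5.77. All of these were named for their steep rises up to day 7. The same rises enter the differences, so large values are in part built in by that choice and are a description. Aqp1 had gained its whole level by day 7, with 236 and 229.7 CPM at day 7 and 173 and 223 CPM at day 21. Siglecg stood at 83.9 and 74.0 CPM at day 7 and 104 and 122 CPM at day 21, and Serpinb9b at 89.9 and 97.2 and 676 and 609 CPM.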

How the results depend on the processing

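The count of 7785 calls depended most on the fit with all 14 libraries, which has another spread, filter and scaling, while the 4 libraries of days 3 and 7 alone gave 7873. With all 14 libraries 1281 genes were called (791 higher, 490 lower, 897 of at least 2-fold), 46 differed from the first interval and 436 from the last. Of 203 genes followed singly 100 lost their call there with the direction kept, among them Yap1, Ctgf, Th, Ccnd1 and Myc (adjusted p = 0.351, 0.136, 0.167, 0.148 and 0.414). That fit also counts the reads of NE replicate 2 again within day 0 replicate 1. A test against a 2-fold change called 1312 genes, 925 higher and 387 lower. Of 82 list counts, higher and lower, 75 changed markedly with all 14 libraries and 66 in the test against a 2-fold change. With all 14 libraries, falls went from 22 to 5 in vesicle release genes and from 14 to 5 in lineage factors. Rises there went from 17 to 11 in YAP and TAZ targets, 22 to 13 in type I markers and 27 to 8 in focal adhesion and actin genes. Leaving out 1 library of day 3 or 7 gave 6184 to 6835 calls, 3343 to 3677 higher, 2836 to 3214 lower and 2169 to 2310 of at least 2-fold, a day left with 1 library being assumed to vary like the others. It gave 2341 to 3387 genes for the first difference between intervals, the lowest without day 3 replicate 2, and 4766 to 6468 for the last. Leaving out 1 NE or Non-NE library gave 4483 to 5570 calls between those lines. With the replicate number as a block 7703 genes were called, 4094 higher and 3609 lower. Samples with the same number did not deviate together (r = 0.0296 between days 3 and 7). The labels do not say whether the numbers pair them, and such a correlation cannot exclude it. No gene called in the first place was called in the other direction under any of these settings, and DESeq2 called 6519 of the 7785 in the same direction. At 9831050 to 10659524 counts a library, genes with a few counts at day 3 have the wide counting intervals given beside them.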
